A study of Homo sapiens with 4 samples.

Results

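The genes described here are 10 regulators of mitotic entry and exit, CDK1, PLK1, AURKA, TPX2, CDC20, CDC25C, UBE2C, UBE2S, FOXM1 and WEE1, out of 59050 genes in the deposited count table. They were selected by name, with earlier results of these data known, under a rule that itself uses no measured value. RNA was sequenced from RCC4, an established human clear cell renal cell carcinoma line, transduced with a lentiviral, doxycycline-inducible hairpin against PML (shPML) or with a scrambled hairpin (shCtrl). All cells, controls included, received doxycycline at 100 ng/ml for 96 h, and 2 experiments with separate infections gave 2 libraries per group. A single hairpin in a single line was sequenced, so effects of the hairpin other than those on PML cannot be told apart from effects of PML loss. The comparison asks how silencing of PML alters the RNA of the cells.

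Entry into mitosis is driven by CDK1 bound to cyclin B. WEE1 holds CDK1 inactive by phosphorylation and the phosphatase CDC25C removes this mark, while PLK1 and AURKA, the latter activated by TPX2, promote the switch and build the spindle. Exit from mitosis requires the anaphase-promoting complex or cyclosome (APC/C), a ubiquitin ligase that is activated by CDC20 and supplied with ubiquitin by the conjugating enzymes UBE2C, which starts chains, and UBE2S, which extends them. FOXM1 is a transcription factor that activates many genes of G2 phase and mitosis, and most of these RNAs are low in cells that do not divide.

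All 10 genes had lower RNA in shPML than in shCtrl cells in both experiments, by 0.80 to 1.30 on the log2 scale in replicate 1 and by 0.79 to 1.64 in replicate 2, and 37.1% of all genes tested were lower in both. UBE2C was the one that passed the threshold in the comparison of 2 against 2 libraries, where 0.333% of all genes were called lower, and all 10 passed it once the experiment was taken into account, where 10.5% were. Of the wider machinery, most other mitotic kinase genes, APC/C substrates and targets of FOXM1 were then called lower too, whereas 1 of 14 core subunits of the APC/C was.

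Levels are CPM, counts scaled to the same library total after TMM normalization, and between 27781193 and 69870617 reads were counted per library. PML itself, the target of the hairpin, was at 93.1 and 136 CPM in shCtrl replicates 1 and 2 and at 54.9 and 87.6 CPM in shPML replicates 1 and 2. On the log2 scale shPML stood at -0.76 relative to shCtrl in replicate 1 and at -0.63 in replicate 2, and edgeR gave -0.69 without a block (adjusted p = 0.32) and -0.70 with the experiment as a block (adjusted p = 4.19e-07). The record of the series notes that labels of 1 library of each group were once exchanged and have since been put right, and the corrected ones were used here. Of 8 kidney carcinoma markers, 7 exceeded 1 CPM in every library, among them PAX8 at 302 to 427 CPM, and LRP2 was at or near 0.

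The shPML replicate 2 library stood apart by blood cell markers. The summed level of 5 such markers was 0.111 and 0.139 CPM in the shCtrl libraries, 0.181 CPM in shPML replicate 1 and 141 CPM in shPML replicate 2. In that library LYZ was at 85.4 CPM, CD14 at 42.8 CPM and PTPRC at 12.6 CPM, while CD3E had no counts in any library. Of 5 endothelial markers, PECAM1 alone exceeded 1 CPM, at 4.11 CPM in the same library. The ratios within replicate 1, where these markers were near 0, are therefore given for the 10 genes, and for most other pathway genes named.

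The RefSeq promoter table (GRCh38.p14), which holds 250 bases before and 50 bases after each start, matched 5 of the 10 genes, CDK1, PLK1, CDC20, CDC25C and UBE2S. No entry was matched for AURKA, TPX2, UBE2C, FOXM1 and WEE1. Many genes of G2 phase and mitosis carry a pair of short promoter elements, the CHR and the CCAAT box. Windows were searched on both strands for the CHR word, TTTGAA or alternatively TTCGAA, and for the CCAAT box. On the opposite strand TTTGAA reads as TTCAAA and the CCAAT box reads as ATTGG. The stretches below, all before the start, are shown because both words fall within them, and capitals mark the words.
CDK1: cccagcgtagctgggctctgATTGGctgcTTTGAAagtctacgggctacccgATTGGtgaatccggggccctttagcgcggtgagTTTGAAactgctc
PLK1: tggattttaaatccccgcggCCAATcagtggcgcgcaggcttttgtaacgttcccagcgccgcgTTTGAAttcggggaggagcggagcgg
CDC20: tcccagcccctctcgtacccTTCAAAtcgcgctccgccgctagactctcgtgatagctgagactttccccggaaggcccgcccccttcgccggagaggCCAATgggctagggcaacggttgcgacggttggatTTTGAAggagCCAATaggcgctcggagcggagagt
CDC25C: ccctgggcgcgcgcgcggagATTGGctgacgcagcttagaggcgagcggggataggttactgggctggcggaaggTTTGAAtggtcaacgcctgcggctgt

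The CDK1 stretch is chr10:60778380-60778477 on the plus strand, the PLK1 stretch is chr16:23678796-23678885 on the plus strand, the CDC20 stretch is chr1:43358783-43358950 on the plus strand and the CDC25C stretch is chr5:138331809-138331909 on the minus strand. The table holds 2 windows for CDK1 and 4 for CDC25C, and the windows printed are those whose stretch before the start holds both words nearest to it. Of the CDC25C windows, the pair at the outer end of the gene span in the count table holds no word, and the stretch shown lies inside that span. Counted in the printed windows with -1 as the base before the start, the word TTTGAA began at position -29 in PLK1, at -30 in CDC25C, at -65 in CDC20 and at -69 and -13 in CDK1. The word at -13 lies inside the CDK1 span of the count table, which starts at 60778454. The other CDK1 window holds TTTGAA at -161, and in another CDC25C window the same TTTGAA lies after that window's start, at position 44. UBE2S held the CCAAT word at position -191 and no CHR word in its window. The CHR word was present in 16.4% and CCAAT in 34.6% of 35116 windows, and both were present in 6.38%. By gene, both words were found for 4 of the 5 matched genes, for 12 of 15 matched FOXM1 targets, 8 of 20 genes of mitotic entry and mitotic kinases, 5 of 12 APC/C substrates, 2 of 8 APC/C regulators, 1 of 16 G2 checkpoint genes and 0 of 14 APC/C core subunits. Among 671 tested genes whose promoters held both words the median log2 fold change was -0.084, and 20.6% were called lower with the experiment as a block, against 12% of 10632 tested genes with any promoter in the table. These matches describe letters in a window, and binding was not measured.

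CDK1, the kinase that drives mitotic entry (chr10:60778454-60794852 in the coordinates of the count table, GRCh38), was at 85.5 and 80.2 CPM in the shCtrl libraries and at 38.6 and 25.7 CPM in the shPML libraries. The groups were apart, and the level in shPML was 45.2% of that in shCtrl in replicate 1 and 32.1% in replicate 2. Without a block the log2 fold change was -1.36 (SE 0.23, adjusted p = 0.0721 by edgeR's quasi-likelihood test, adjusted by Benjamini-Hochberg). With the experiment as a block, CDK1 fell by 1.38 on the log2 scale (adjusted p = 2.9e-14, edgeR).

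CDC25C, the phosphatase that activates CDK1 (chr5:138285265-138338355), had the lowest counts of the 10 genes, 598 and 294 reads in the shCtrl and 327 and 72 reads in the shPML libraries. These correspond to 11.0 and 8.17 CPM against 4.56 and 2.62 CPM, without overlap between the groups. Within the experiments the log2 ratio came to -1.28 (replicate 1) and -1.64 (replicate 2). Fitted over all libraries it was -1.41 (SE 0.36, adjusted p = 0.134 by edgeR), and in the fit with the experiment as a block the gene fell by 1.44 (adjusted p = 4.48e-07). CDC25C shares exon bases with FAM53C on the opposite strand, a gene with 1464 to 4036 reads per library, and the strand setting of the counting is not given in the sources used here, so its level is less certain than the others.

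WEE1, the kinase that opposes CDC25C (chr11:9573670-9589985), was at 51.3 and 49.2 CPM in the shCtrl and at 25.2 and 24.5 CPM in the shPML libraries. The replicates of each group were close, and shPML was at 49.2% of shCtrl in replicate 1 and at 49.9% in replicate 2. The fitted log2 change was -1.01 (SE 0.15, adjusted p = 0.0618 by edgeR), and with the block WEE1 fell by 1.01 (adjusted p = 6.42e-10). Both the inhibitory kinase and the activating phosphatase of CDK1 thus fell with the block.

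PLK1, the kinase that promotes entry, centrosome maturation and later steps of division (chr16:23678889-23690367), was at 109 and 123 CPM in the shCtrl and at 49.4 and 66.3 CPM in the shPML libraries. The groups did not overlap, and the log2 ratio was lower in replicate 1 (-1.15) than in replicate 2 (-0.89). For PLK1 edgeR gave -1.01 on the log2 scale (SE 0.20, adjusted p = 0.0889), and with the block PLK1 fell by 1.02 (adjusted p = 2.96e-11). ERN2, which shares exon bases with PLK1 on the opposite strand, had at most 21 reads in any library.

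AURKA, the kinase of centrosomes and spindle poles (chr20:56369389-56392337), was at 123 and 117 CPM in the shCtrl and at 63.8 and 54.8 CPM in the shPML libraries. Its activator TPX2, which carries it to spindle microtubules (chr20:31739271-31801805), was at 348 and 323 CPM against 190 and 160 CPM. Neither gene overlapped between the groups, and their ratios ran close together, -0.95 and -1.10 for AURKA and -0.87 and -1.02 for TPX2 in replicates 1 and 2. The fitted change of AURKA was -1.02 (SE 0.16, adjusted p = 0.0657) and that of TPX2 was -0.94 (SE 0.17, adjusted p = 0.0774), both by edgeR. With the block AURKA fell by 1.02 (adjusted p = 1.92e-11) and TPX2 by 0.94 (adjusted p = 9.18e-12). The processed pseudogene AURKAP1 held at most 0.450% as many reads as AURKA.

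CDC20, the activator of the APC/C in mitosis (chr1:43358981-43363203), was at 182 and 196 CPM in the shCtrl and at 83.3 and 85.5 CPM in the shPML libraries. The shPML libraries were close to each other and well below both shCtrl libraries, at 45.7% of shCtrl in replicate 1 and 43.5% in replicate 2. The change was -1.17 on the log2 scale (SE 0.15, adjusted p = 0.0528 by edgeR), just short of the threshold, and with the block CDC20 fell by 1.16 (adjusted p = 3.33e-14). Its pseudogene CDC20P1 had 0.894% to 1.50% as many reads.

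UBE2C, the enzyme that starts ubiquitin chains on APC/C substrates (chr20:45812576-45816957), was at 130 and 153 CPM in the shCtrl and at 52.8 and 51.1 CPM in the shPML libraries, without overlap. It fell by 1.45 on the log2 scale (SE 0.16, adjusted p = 0.0484 by edgeR without a block), or 2.72-fold, the largest fall of the 10 genes in that fit, and by 1.44 with the experiment as a block (adjusted p = 1.44e-16, edgeR). Its ratio was -1.30 in replicate 1 and -1.58 in replicate 2. In the fit without shPML replicate 2 the change was of like size, -1.41, with an adjusted p of 0.0831 by edgeR. Its listed pseudogenes held at most 0.370% as many reads.

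UBE2S, the enzyme that extends these chains (chr19:55399745-55407788), was the only one of the 10 whose groups overlapped. Its level was 34.1 CPM in shCtrl replicate 1 and 118 CPM in shCtrl replicate 2, and 14.6 CPM in shPML replicate 1 and 59.9 CPM in shPML replicate 2. Both libraries of replicate 2 were thus above both libraries of replicate 1, and shPML was at 42.9% of shCtrl in replicate 1 and at 50.7% in replicate 2. Without a block the change was -1.04 on the log2 scale (SE 0.82, adjusted p = 0.597 by edgeR), whereas with the block UBE2S fell by 1.10 (SE 0.12, adjusted p = 2.73e-11). When shCtrl replicate 2 was left out of the fit without a block, the sign turned, to 0.12. That fit sets shPML of both experiments against shCtrl of replicate 1 alone. The pseudogene UBE2SP1 had 8.01% and 5.62% as many reads as UBE2S in the replicate 1 libraries and 1.50% and 0.850% in the replicate 2 libraries, so the assignment of reads between the copies leaves some uncertainty. RPL28, a ribosomal protein gene on the opposite strand, overlaps the span of UBE2S but shares no exon bases with it.

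FOXM1 (chr12:2857681-2877155) was at 257 and 266 CPM in the shCtrl and at 148 and 154 CPM in the shPML libraries. It had the smallest change of the 10 genes, with a ratio of -0.80 in replicate 1 and -0.79 in replicate 2. This came to -0.79 in the fit without a block (SE 0.15, adjusted p = 0.0798 by edgeR), and with the block FOXM1 fell by 0.79 (adjusted p = 1.88e-09).

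**Figure D1:**
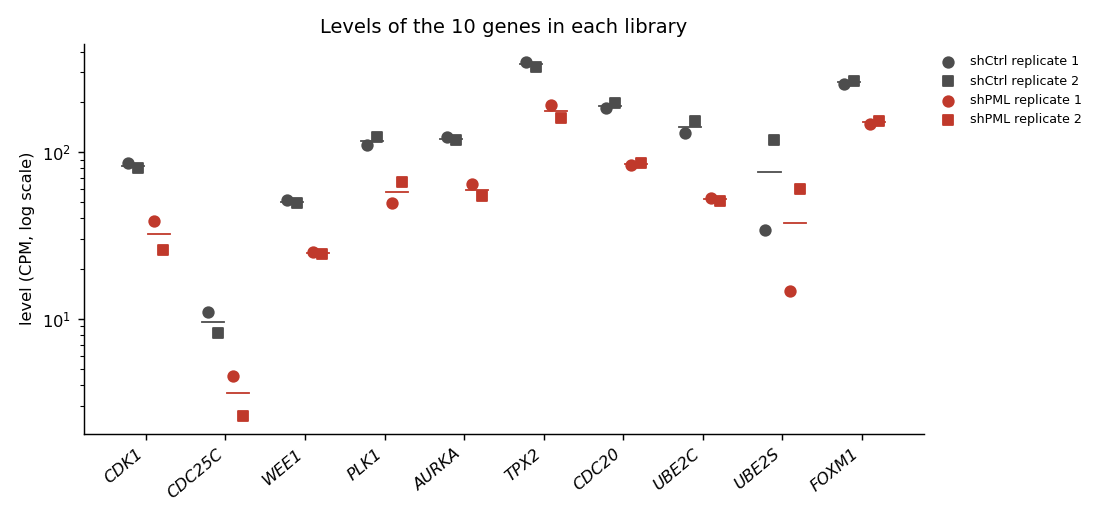
Level of each gene in the 4 libraries, in CPM on a log axis, with circles for replicate 1, squares for replicate 2, and short lines at the mean of each group. In 9 of the 10 genes both shPML points lie below both shCtrl points, and UBE2S, from 14.6 to 118 CPM, is the exception.

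In 9 of the 10 genes both shPML values were under both shCtrl values, as they were in 24.9% of the 16516 genes tested, and in 0 of the 10 were they above, against 23.1%. All 10 were lower within both experiments, against 37.1% of the genes tested, and a fall in both experiments at least as large as the smallest of these 10 was seen in 6.24%. In the comparison without a block 1 gene, UBE2C, was called lower (adjusted p under 0.05, change past 0.5 on the log2 scale), while 0.333% of all genes were. None was called higher in that fit, against 0.0787% of all genes, and at an unadjusted p under 0.05 0 were higher, against 7.8% of all genes. At an unadjusted p under 0.05, 9 of the 10 genes were lower, all but UBE2S, as were 10.1% of all genes. Blocking on the experiment, edgeR called all 10 lower, against 10.5% of all genes, and 0 higher, against 8.57%. Over the 10 genes the median change was -1.03 on the log2 scale, and that of all genes tested was 0.01. Because these are bulk libraries, fewer cells in G2 phase or mitosis and less RNA per cell cannot be told apart. Without a block the p-values measure the spread between these libraries. With the block they measure only the spread left once the difference between the experiments is removed. That remaining spread comes from 4 libraries and is estimated with information shared across genes (common dispersion 0.0137 with and 0.0813 without the block). Very small p-values with the block are therefore not evidence from many separate infections.

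The lower levels were also present without the library that held blood cell markers. Within replicate 1 the median log2 ratio of the 10 genes was -1.14, and within replicate 2 it was -1.06. In all 10 genes shPML replicate 1 was below both shCtrl libraries, as it was in 37.1% of all genes, and 10.3% of all genes had a fall in replicate 1 at least as large as the smallest of the 10. When shPML replicate 2 was left out of the fit, no member was called and all 10 were negative. Their log2 fold changes ran from -2.36 to -0.81, and the median over all genes tested was -0.0025. That fit rests on a lone shPML library, whose spread is assumed to be that of the shCtrl libraries, and a block cannot be added to it.

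**Figure D2:**
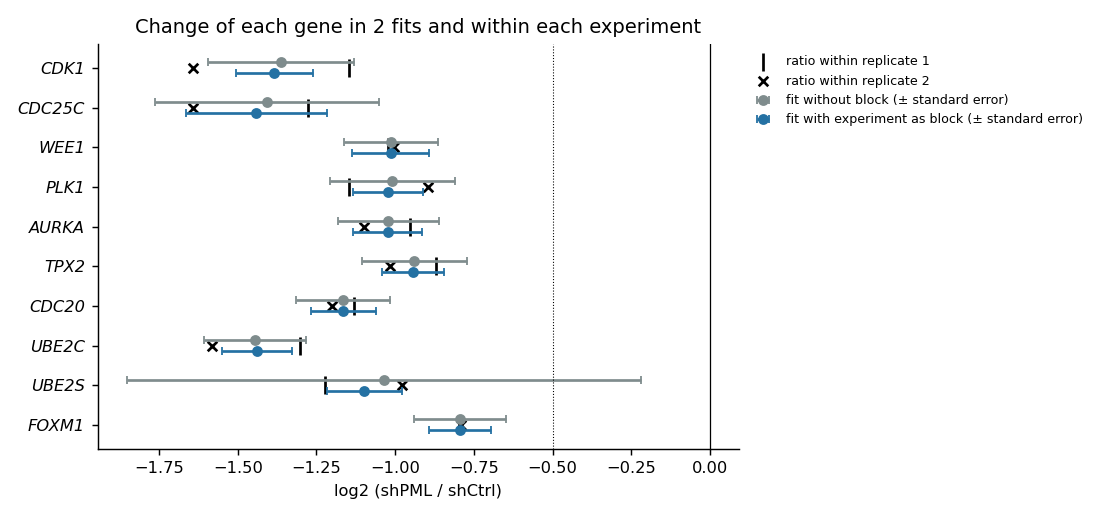
Log2 ratio of shPML to shCtrl for each gene, as fitted without a block (grey) and with the experiment as a block (blue), with bars of 1 standard error, and as measured within replicate 1 (vertical ticks) and replicate 2 (crosses). The dotted line marks -0.5. All values lie left of it, from -0.79 to -1.64, and the bar of UBE2S without the block, with a standard error of 0.82, crosses it.

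The members differed in how far the 2 experiments matched. The ratio in replicate 2 was the lower one in 6 of the 10 genes, as in 50.4% of all genes. The largest gap was that of CDK1, at -0.49 (replicate 2 minus replicate 1), followed by CDC25C at -0.36, while WEE1 and FOXM1 differed by 0.02 and 0.01. A difference in level between the experiments, tested in the edgeR fit with the block, passed the thresholds in 2 genes, against 13.5% of all genes. UBE2S was 1.91 higher on the log2 scale in replicate 2 (adjusted p = 5.97e-20), and CDC25C was lower there, at -0.60 (adjusted p = 0.0401). CDK1, at -0.33, and PLK1, at 0.29, had adjusted p of 0.0393 and 0.0433 and stayed within 0.5. The shPML replicate 2 library with its blood cell markers enters these values, and its part in them was not tested. In the shCtrl libraries alone UBE2S was likewise higher in replicate 2, and CDC25C and CDK1 lower.

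**Figure D3:**
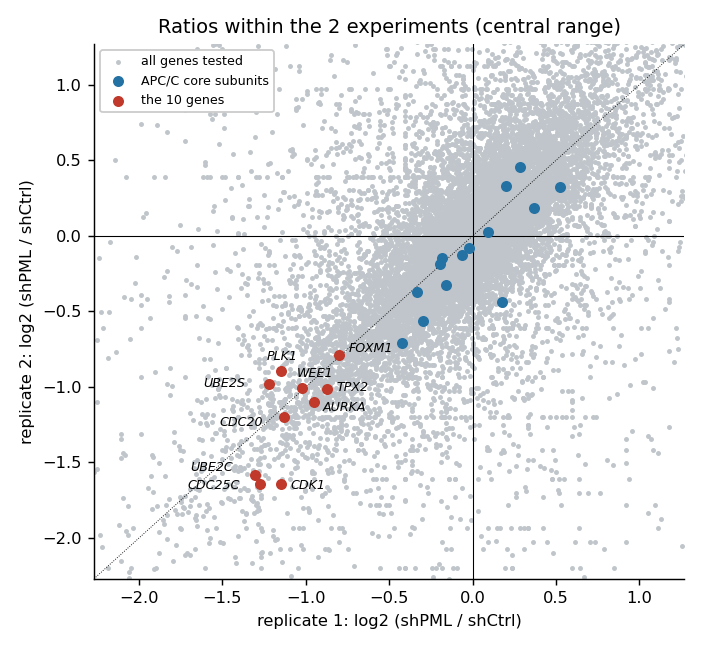
Log2 ratio of shPML to shCtrl within replicate 2 against that within replicate 1, for the 10 genes (red), the 14 APC/C core subunits (blue) and all genes tested (grey, central range only), with a dotted line where the 2 ratios are equal. The 10 genes lie in the lower left, at -0.80 to -1.30 in replicate 1 and -0.79 to -1.64 in replicate 2, while the core subunits lie around 0.

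Levels of different genes were compared per kilobase of gene model. In the shCtrl libraries the mean level was 110 CPM per kilobase for UBE2C, 105 for CDC20, 93.0 for TPX2, 71.6 for FOXM1, 53.9 for PLK1, 44.1 for AURKA, 40.7 for CDK1, 29.8 for UBE2S, 11.7 for WEE1 and 3.74 for CDC25C. The ranges of UBE2C and CDC20 overlapped, and that of UBE2S, at 13.3 to 46.2, overlapped those of CDK1 and AURKA. The other neighbours in this order did not overlap. In the shPML libraries UBE2C, at 40.4 CPM per kilobase, came after TPX2 at 48.5, CDC20 at 46.8 and FOXM1 at 41.3, and these 4 genes were closer together than in shCtrl. There the ranges of TPX2 and CDC20 overlapped, as did those of FOXM1 and UBE2C, so the order within these pairs is not resolved. Summed over the 10 genes, the level was 1332 and 1434 CPM in the shCtrl and 670 and 684 CPM in the shPML libraries.

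Ratios were formed for pairs of genes that act on the same step, as a description without a test. CDC20 and FZR1 are the alternative activators of the APC/C in mitosis and in G1 phase. The ratio of CDC20 to FZR1, per kilobase, was 7.84 and 6.46 in the shCtrl and 4.29 and 2.73 in the shPML libraries, lower in both experiments. FZR1 itself was at 76.5 and 99.9 CPM in shCtrl and 63.8 and 103 CPM in shPML (log2 fold change -0.08, adjusted p = 0.925 by edgeR). The ratio of WEE1 to CDC25C was 2.79 and 3.62 in shCtrl and 3.32 and 5.62 in shPML, so shPML was higher within each experiment although the groups overlapped. UBE2C relative to UBE2S followed the experiment, at 7.60 and 7.18 in replicate 1 and 2.57 and 1.70 in replicate 2 for shCtrl and shPML.

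**Figure D4:**
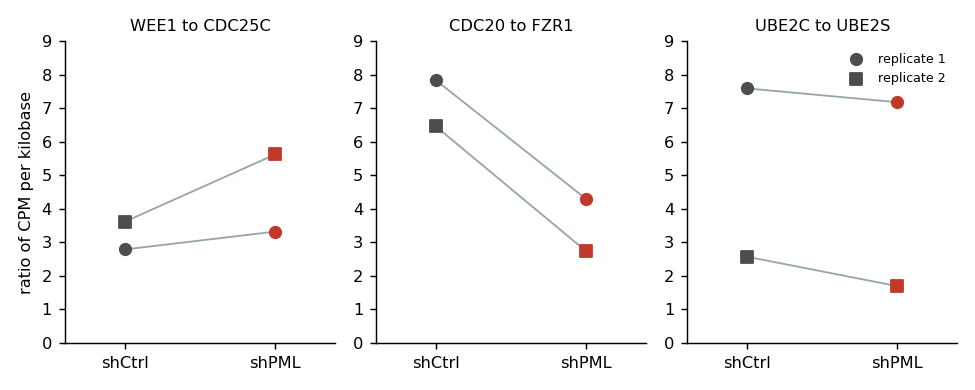
Ratio of CPM per kilobase for 3 pairs of genes in each library, with shCtrl in grey, shPML in red, circles for replicate 1, squares for replicate 2 and lines joining libraries of the same experiment. The ratio of CDC20 to FZR1 is lower in shPML in both experiments, from 7.84 to 4.29 and from 6.46 to 2.73, and that of UBE2C to UBE2S separates the experiments.

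Other genes of the same machinery were taken from 6 lists of 95 genes, of which 94 were tested. Without a block 2 of them were called lower, CDCA5 and BIRC5, and 0 higher, by edgeR (58 and 3 at an unadjusted p under 0.05). With the block 59 were called lower and 2 higher, against 10.5% and 8.57% of all genes. Among 24 genes of mitotic entry and mitotic kinases the median log2 fold change was -0.95, 0 were called without the block (21 lower at an unadjusted p under 0.05), and 21 fell with it. CKS1B, a small subunit bound by CDK1, went from 41.3 and 29.0 to 12.4 and 8.37 CPM and fell by 1.76 with the block. With the block PLK4, which starts centriole duplication, fell by 1.40, and PKMYT1, a membrane-bound relative of WEE1, fell by 1.39. CCNB1, the cyclin partner of CDK1, which was picked after its values were seen, was at 160 and 135 against 66.2 and 47.5 CPM and fell by 1.39 with the block. The 3 that were not called with the block were CDC25B, at -0.45, ENSA, at -0.09, and ARPP19, at -0.03, named after their values were seen. Within replicate 1 alone the median log2 ratio of the list was -0.87, with -1.74 for CKS1B, -1.23 for PLK4, -1.40 for PKMYT1 and -1.27 for CCNB1.

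The subunits of the APC/C itself did not share this pattern. Of 14 core subunits, 0 were called without the block by edgeR (0 lower and 1 higher at an unadjusted p under 0.05), and the median log2 fold change was -0.07, with a range of -0.54 to 0.43. With the block CDC23 alone was called, and it fell by 0.56, from 75.9 and 64.0 to 56.7 and 39.2 CPM. ANAPC15 was at -0.42 and ANAPC16 at 0.43 with the block, both within 0.5. Among 10 regulators of the complex the median was -0.23, and 0 were called without the block. In that fit 4 were lower and 1 higher at an unadjusted p under 0.05, against 10.1% and 7.8% of all genes. With the block 4 fell and 1 rose, against 10.5% and 8.57% of all genes. MAD2L1, the checkpoint protein that sequesters CDC20, fell by 1.25 and FBXO5, an inhibitor of the complex, fell by 0.82. CUEDC2, a regulator that promotes release of the complex from the checkpoint, rose by 0.80, from 22.8 and 20.6 to 40.9 and 34.6 CPM. Within replicate 1 alone the median log2 ratio was -0.04 for the core subunits and -0.33 for the regulators, with -0.42 for CDC23, -1.12 for MAD2L1, -0.82 for FBXO5 and 0.84 for CUEDC2.

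Of 12 substrates of the APC/C, 12 were lower in both experiments, the median change was -0.98 on the log2 scale, and all 12 fell with the block. Over all genes tested, 37.1% were lower in both experiments and 10.5% were called lower with the block. CDCA5, which protects cohesion of sister chromatids, was at 119 and 107 against 38.9 and 34.5 CPM and fell by 1.62 without the block (adjusted p = 0.0484 by edgeR). SKP2, CDCA3 and KIF18A fell by 1.21, 1.20 and 1.20 with the block. Of 16 targets of FOXM1, 16 were lower in both experiments, the median was -1.04, and 15 fell with the block. BIRC5, a subunit of the chromosomal passenger complex, was at 157 and 171 against 58.6 and 55.3 CPM and fell by 1.52 without the block (adjusted p = 0.0484 by edgeR). CENPA, KIF2C and TOP2A fell by 1.28, 1.18 and 1.10 with the block. PRC1, named after its values were seen, was not called, at 0.946 to 1.44 CPM. Within replicate 1 alone the median log2 ratio was -0.93 for the substrates and -0.99 for the targets of FOXM1. Among the substrates it was -1.61 for CDCA5, -1.14 for SKP2, -1.22 for CDCA3 and -1.03 for KIF18A in that experiment. Among the targets it was -1.42 for BIRC5, -1.11 for CENPA, -1.17 for KIF2C and -1.07 for TOP2A. FOXM1 itself had a smaller log2 fold change, -0.79, than the median of these targets, a difference that was not tested.

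Of 19 genes of the G2 checkpoint and of the control of CDC25 and WEE1, 18 were tested, and their median log2 fold change was -0.19. Without the block 0 were called by edgeR. In that fit 6 were lower and 1 higher at an unadjusted p under 0.05, against 10.1% and 7.8% of all genes. With the block 6 fell and 1 rose, against 10.5% and 8.57% of all genes. CLSPN, an adaptor for activation of CHEK1, fell by 1.01 and YWHAH, a 14-3-3 protein, fell by 0.69 with the block. SFN, another 14-3-3 protein, fell by 2.07 with the block, but from 1.11 and 2.03 CPM to 0.558 and 0.145 CPM, and its ratios of -0.99 and -3.80 differed between the experiments. The YWHA genes of the list other than YWHAH were named after their values were seen. None of them was called with the block, with YWHAB at -0.04, YWHAE at -0.05, YWHAG at -0.02 and YWHAQ at -0.29. Within replicate 1 alone the median log2 ratio of the list was -0.10, with -1.01 for CLSPN and -0.60 for YWHAH. The gene that rose was CDKN1A, an inhibitor of cyclin-dependent kinases, singled out after its values were seen, at 299 and 229 against 379 and 453 CPM, with a log2 ratio of 0.34 in replicate 1 and 0.99 in replicate 2.

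The profile over the 4 libraries, as log2 CPM centred on each gene, was compared with the mean profile of the 10 genes by Euclidean distance. Among the 10, CDC20 was nearest, at 0.0625, and UBE2S farthest, at 1.78. Of the other genes with a mean of at least 10 CPM, the nearest were CLPTM1L (0.0239), ATF2 (0.0531), LRRC8C (0.0608), YWHAZ (0.0766) and KLHL8 (0.0780). None of these 5 is in the lists above, although other YWHA genes are. CLPTM1L, for example, was at 129 and 146 CPM in the shCtrl and 61.7 and 65.6 CPM in the shPML libraries. The mean profile includes UBE2S, which was higher in replicate 2 and shifts the mean that way, and the order of neighbours without it was not tested. With 4 libraries the distance rests on few values.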

How the data were processed

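RNA of RCC4 cells was measured in 4 libraries, 2 shCtrl and 2 shPML. The authors deposited raw read counts for 59050 genes, whole numbers without normalization. Reads of stranded mRNA libraries were trimmed with Trimmomatic 0.39, mapped to GRCh38 using STAR and assigned to genes by featureCounts 1.6.4, per the labels and the methods, and the Gencode release and the strand setting of the counting are not given in the sources used here. Columns without a number were taken as replicate 1, since the other column of each group carries the number 2.

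The analysis used R 4.3.3 with edgeR 4.0.16 and DESeq2 1.42.0, and in Python 3.11.15 with pandas 2.3.3. filterByExpr left 16516 genes. After TMM scaling, edgeR's quasi-likelihood test was run without a block, and p-values were adjusted by Benjamini-Hochberg over all these genes. Calls required an adjusted p under 0.05 with a change past 0.5 on the log2 scale. Exact permutation tests, whose smallest two-sided p is 0.333 in this design, were not used. Libraries were paired by the replicate numbers in their labels. The methods describe 2 experiments with separate infections and do not state which libraries belong together. Across genes, the replicate 1 libraries deviated together from their groups' means (correlation 0.603), and the common dispersion was 0.0813 without and 0.0137 with the experiment as a block. DESeq2, the block, RLE scaling, other filters, other fold thresholds and each library left out were tried.

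The 10 genes and the lists were chosen with earlier results of these data known. Named genes are the 10 genes, PML, the partners in ratios, pseudogenes and overlapping genes, of each list every gene called and the 3 with the largest change among those without overlap between groups, and the 5 genes nearest in profile (pseudocount 0.5 CPM). Others are marked as picked after their values were seen. The test between experiments, and the counts for shPML replicate 1 alone, were added after the data were seen. Protein motifs were planned and not searched, because no protein table was used here. Of the blood cell list, 1 marker is not reported here as a single result, and the other 4 are.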

Additional observations from a re-analysis of the deposited data

How the results depend on the processing

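The direction of the 10 genes held in every alternative run except that UBE2S turned to 0.12 without shCtrl replicate 2. How many genes were called depended on the processing, and the counts below are, in order, the 10 genes lower, all genes lower, all genes higher, and other pathway genes lower and higher, against 1, 55, 13, 2 and 0 in the comparison without a block. With the experiment as a replicate block (edgeR) they were 10, 1735, 1415, 59 and 2. By DESeq2 they were 9, 894, 578, 47 and 1 without a block and 10, 1384, 1102, 58 and 1 with the block. With no filter on low counts, where 30093 genes were tested, they were 10, 946, 891, 47 and 1. With at least 10 counts in every library, where 14197 genes were tested, they were 2, 144, 53, 5 and 0. With RLE scaling all 5 counts were 0 by edgeR, although 9 of the 10 genes and 2967 genes in all had an unadjusted p under 0.05, and the smallest adjusted p was 0.0501. With 1 library left out, 0 of the 10 genes (9 or 10 at an unadjusted p under 0.05), 0 to 29 genes lower, 1 to 11 genes higher and 0 other pathway genes lower were called, and the median of the 10 genes lay between -1.13 and -1.05. UBE2S ranged from -2.36 to 0.12 in these fits, which have no block and set libraries of unequal experiments against each other. UBE2C was short of the threshold in each of these fits, with adjusted p from 0.0831 to 0.158. Of the single gene results under the alternatives, 78 kept their side of the threshold, 36 passed it in addition, 5 lost it and 1 reversed. The 78 include the other fold thresholds, which reuse the adjusted p of the fit without a block and so could add no call. UBE2C, at -1.45, lay beyond each of these thresholds. With 2 libraries per group, and blood cell markers in shPML replicate 2, the calls rest on several choices. These are whether the experiment is modelled, the test, the scaling and the filter on low counts. Without a block, DESeq2 called 9 of the 10 genes lower and edgeR with no filter called 10. The low counts of CDC25C limit its precision.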
